A study of Mus musculus with 8 samples.

Results

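The genes described here are the heat shock genes Hspa1a, Hspa1b, Hspa8, Dnajb1, Hsph1, Hsp90aa1, Hspd1 and Hspe1 and the cold-inducible genes Cirbp and Rbm3. They were chosen by symbol, and all 10 were found both in the deposited expression table and, by Ensembl gene identifier, among the 17580 gene identifiers of the 8 library tables. The libraries hold single cells from 4T1 tumours, a mouse mammary carcinoma line grown under the skin of Balb/c mice for 10 days. Pieces of tumour were digested for 1 h with a protease from Bacillus licheniformis, which also works in the cold, at 37C or at 4C, with or without an inhibitor that the protocol names as actinomycin D at 2 nM, a blocker of transcription. The 4 groups were 37C with inhibitor, 37C without inhibitor, 4C with inhibitor and 4C without inhibitor. In every group 6 pieces from different mice made up 1 suspension, which was cleared of red cells, debris and dead cells. Each suspension was then divided into the aliquots A and B, giving 2 libraries per group, made with SureCell 3' chemistry in ddSEQ droplets. The warm digestion used a heated dissociator and the cold digestion an unheated model, so temperature, instrument and the pool of mice cannot be told apart. With 1 suspension per group, the inhibitor cannot be told apart from differences between suspensions either. The p-values reflect the spread between aliquots and not that between mice.

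Heat shock proteins are chaperones that hold, fold and refold other proteins. When unfolded protein builds up, the transcription factor HSF1 binds heat shock elements, inverted repeats of GAA, and raises the mRNAs of the cytosolic Hsp70, Hsp40, Hsp110 and Hsp90 genes and of the mitochondrial chaperonin pair. Cirbp and Rbm3 are glycine-rich RNA-binding proteins whose mRNAs are known to rise when mammalian cells are mildly cooled. Warm enzymatic dissociation of tissue is a known source of heat shock transcripts in single-cell libraries, which gives the comparison of temperatures and of the inhibitor its question.

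Promoter windows from RefSeq (GRCm38.p6, 250 bases before to 50 bases after a gene start) were found for 7 of the 10 genes and are shown where the letters carry a point about these genes. Hspa1a and Hspa1b lie in the same strand direction on chromosome 17, at chr17:34969190-34972156 (-) and chr17:34956436-34959238 (-), and encode the stress-inducible Hsp70. The stretches of 250 bases before their starts, chr17:34972157-34972406 (-) and chr17:34959239-34959488 (-), are printed because they are nearly the same. Capitals mark the heat shock element pair, searched as GAANNTTC or TTCNNGAA, letters that read the same on the other strand.
Hspa1a: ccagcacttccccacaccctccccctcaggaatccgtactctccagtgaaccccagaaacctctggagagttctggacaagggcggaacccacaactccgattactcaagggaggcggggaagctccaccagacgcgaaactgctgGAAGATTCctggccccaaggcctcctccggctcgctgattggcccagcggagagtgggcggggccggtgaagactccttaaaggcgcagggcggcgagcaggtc
Hspa1b: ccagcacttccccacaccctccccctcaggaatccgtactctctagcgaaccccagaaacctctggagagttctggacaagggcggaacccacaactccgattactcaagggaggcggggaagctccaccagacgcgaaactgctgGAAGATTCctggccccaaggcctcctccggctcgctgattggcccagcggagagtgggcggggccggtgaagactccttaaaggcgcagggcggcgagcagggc
The 2 stretches differ at 3 of 250 bases, C44T, T47C and T249G, with the base of Hspa1a first and positions counted from 1 at the 5′ end. Each holds 1 pair, starting 104 bases before the gene start. The transcripts are less alike: 60.3% of the 50-base stretches of the Hspa1a transcript also occur in another annotated gene, but 0.0% of those in its last 500 bases do, and for Hspa1b the shares are 62.3% and 0.0%. The 3' ends that this kit reads therefore differ between the copies, and their counts are given separately.

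Hspd1 (chr1:55077835-55088243, -) and Hspe1 (chr1:55088132-55091307, +) encode the mitochondrial chaperonins Hsp60 and Hsp10 and lie head to head, so that the Hspe1 window and 1 Hspd1 window share 285 bases. The shared part holds a run of 3 overlapping pairs, shown because both genes have it in front of them. Hsph1 (chr5:149614287-149636376, -) encodes the Hsp110 nucleotide exchange factor of Hsp70, and of the 3 pairs in its first window the 1 that lies before the start is printed. The stretches of 30 bases are chr1:55088053-55088082 (+), which lies in a 5′ untranslated exon of an Hspd1 transcript, and chr5:149636351-149636380 (-), which overlaps an untranslated exon of an Hsph1 transcript. Capitals again mark the pairs.
Hspe1: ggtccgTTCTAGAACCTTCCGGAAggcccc
Hsph1: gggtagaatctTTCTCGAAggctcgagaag
A pair was present in 15.1% of all 32851 windows, and a run of 3 units, GAANNTTCNNGAA or TTCNNGAANNTTC, in 0.603%; among these genes Hspd1, Hspe1 and Hsph1 held such a run. The Dnajb1 and Cirbp windows hold no pair with these letters. The octamer TCCCCGCC, known from the mouse Cirbp promoter as a mild cold-responsive element, starts 247 bases before the gene start used for the first Cirbp window. It is in capitals in the first 60 bases of that window, chr10:80167589-80167648 (+). This stretch lies inside the annotated Cirbp gene, chr10:80165985-80172786 (+).
Cirbp: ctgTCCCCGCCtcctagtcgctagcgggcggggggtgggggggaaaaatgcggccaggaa
This octamer or its reverse complement, GGCGGGGA, occurred in 5.38% of all windows. The Hspa1a and Hspa1b windows and the second Dnajb1 window were among them, while the second Cirbp window holds none. A match says only that the letters are there.

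The libraries differed in depth with temperature. All listed barcodes of a library held 433245 to 801510 molecules (UMIs) at 37C and 55698 to 186002 at 4C, and the cells that the deposited annotation names held 158314 to 199929 at 37C and 23212 to 65149 at 4C. Annotated cells had a median of 1299 ± 250 UMIs in 37C libraries and 592 ± 30.7 UMIs in 4C libraries (SD, n = 4 libraries each). The smallest value possible was reached (exact permutation test, two-sided, adjusted p = 0.0286 over 2 measures). The test treated the 2 aliquots of a suspension as independent, so its p does not measure the spread between suspensions. Unannotated barcodes over 5000 UMIs held 30.0 to 43.1% of a library's UMIs at 37C and 0.0 to 3.90% at 4C. The annotation names 654 cells, 325 tumour cells, 154 T cells, 109 macrophages and 66 NK cells, and in the sums over the 8 libraries each name matched its markers: the summed tumour markers reached 1611 UMIs per 1000000 UMIs of the same sum (CPM) in tumour cells, T cell markers 7946 in T cells, macrophage markers 25052 in macrophages and NK markers 15588 in NK cells. In tumour cells 4 of the 6 tumour markers were detected, and Epcam and Krt14 were not. NK cells also carried 3670 CPM of T cell markers, and T cells 1566 CPM of NK markers. Macrophages also carried 3428 CPM of mast cell or basophil markers and 1306 CPM of neutrophil markers, and among their 4C libraries these reached 27787 CPM and 42035 CPM, above the highest 4C sum of macrophage markers, 25811 CPM. Pairs of libraries shared 4 to 19 barcodes and at most 1 annotated barcode.

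In the sums over all barcodes, the chaperones Hspd1, Hsp90aa1, Hspe1 and Hspa8 were higher at 37C than at 4C and Cirbp was lower. These 5 of the 10 genes passed an adjusted p of 0.05 (edgeR quasi-likelihood test, Benjamini-Hochberg over 7515 genes), where 17.2% of all genes tested passed; 4 were higher, against 9.18% of all genes, and 1 was lower, against 7.98%. The median log2 fold change over the 10 genes was 0.61, beside 0.05 over all genes tested, and 9 of the 10 values were above 0, beside 53.3% of all genes. Among the 9, Hsph1 and Rbm3 were near 0. Without the scaling of the fit, their pooled ratios of 37C over 4C were 0.94 and 0.958, in the other direction. The 37C and 4C libraries did not overlap for Hspd1, Hsp90aa1 and Hspe1, all higher, where 7.41% of all genes were higher without overlap, and for Cirbp, lower, where 10.4% were. The count of 5 fell to 3, Hspd1, Hsp90aa1 and Hspe1, without either library of 4C with inhibitor, and DESeq2 called the same 3.

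Other measures moved with the temperature in these sums. The summed T cell markers (9 of 9 detected) spanned 493 to 1196 CPM at 37C and 2014 to 3286 CPM at 4C, and NK markers (8 of 8 detected) 509 to 1089 CPM at 37C and 3079 to 4462 CPM at 4C. Macrophage markers (10 of 10 detected) spanned 2177 to 5621 CPM at 37C and 808 to 1289 CPM at 4C, and tumour markers (6 of 6 detected) 949 to 1250 CPM at 37C and 401 to 801 CPM at 4C. A smaller share of a cell type and less RNA per cell cannot be told apart in such sums. Without the unannotated barcodes over 5000 UMIs the genes that passed were Hspd1, Hsp90aa1, Hspe1 and Hspa1b, while Hspa8 (adjusted p = 0.119) and Cirbp (adjusted p = 0.0947) did not.

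**Figure D1:**
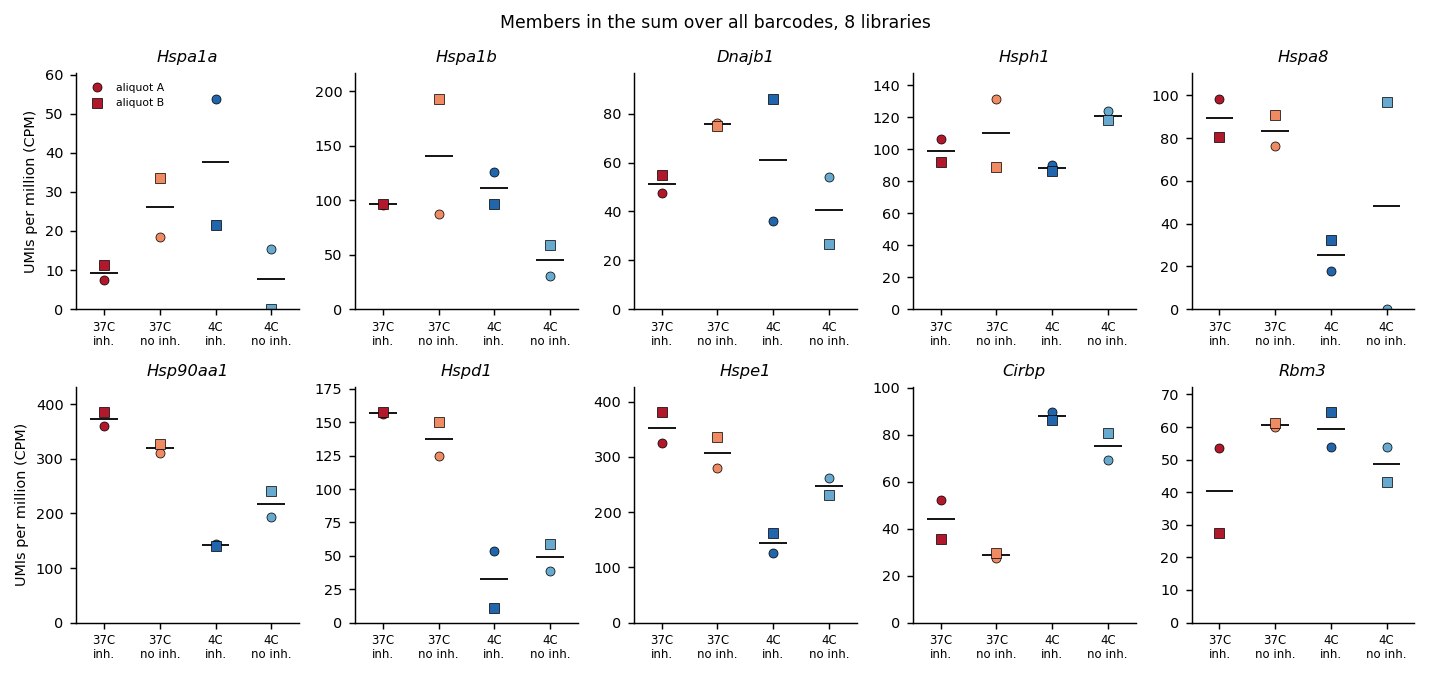
Levels of the 10 genes in the sums over all barcodes, in CPM, for the 4 groups. Circles are aliquot A, squares aliquot B and lines the mean of the 2; Hspd1, Hsp90aa1 and Hspe1 lie higher in every 37C library than in every 4C library, and Cirbp lower.

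Among the Hsp70 genes, Hspa8, the constitutive Hsc70 (chr9:40800984-40810087, +), had 98.6 and 80.5 CPM in the 37C libraries with inhibitor and 76.2 and 90.8 CPM in those without, against 18.0 and 32.3 CPM in the 4C libraries with inhibitor and 0.0 and 96.8 CPM in those without. The 37C libraries lay close together, and the 4C libraries without inhibitor spanned the whole range, since aliquot A held 0 of 129580 UMIs, which allows up to 23.2 CPM, and aliquot B reached the 37C level. The log2 fold change was 1.26 ± 0.44 (SE; edgeR adjusted p = 0.0463). The call was lost without aliquot A of the 4C group without inhibitor (log2 fold change 0.89, adjusted p = 0.122) and without aliquot A (1.13, adjusted p = 0.157) or B (1.63, adjusted p = 0.159) of the 4C group with inhibitor. Without aliquot B of the 4C group without inhibitor the fitted value was 4.94 (adjusted p = 7.17e-06). Counts of Hspa8 are uncertain for a second reason: 73.2% of the 50-base stretches of its transcript, and 81.8% of those in the last 500 bases, also occur in 11 other annotated genes, all of them pseudogenes, and the sources used here do not say how reads with several matches were counted. DESeq2 did not call it (1.36, adjusted p = 0.272).

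Hspa1b had 96.1 and 96.6 CPM in the 37C libraries with inhibitor and 87.7 and 193 CPM in those without, against 126 and 97.0 CPM in the 4C libraries with inhibitor and 30.9 and 59.1 CPM in those without. The 2 temperatures overlapped, because the 4C libraries with inhibitor were as high as most 37C libraries. Over both arms the log2 fold change was 0.82 ± 0.31 (SE; edgeR adjusted p = 0.0641), short of the threshold. It lay at 0.49 (adjusted p = 0.31) without aliquot B of the 37C group without inhibitor. It passed when either 37C library with inhibitor was left out (0.84, adjusted p = 0.0446 without A; 0.83, adjusted p = 0.0498 without B), and without aliquot A of the 37C group without inhibitor (1.06, adjusted p = 0.0037) or aliquot B of the 4C group without inhibitor (1.17, adjusted p = 0.0257). Hspa1a, its near copy, had 7.49 and 11.3 CPM in the 37C libraries with inhibitor and 18.5 and 33.6 CPM in those without, against 53.9 and 21.6 CPM in the 4C libraries with inhibitor and 15.4 and 0.0 CPM in those without. These are 38 UMIs at 37C and 7 at 4C in all, and the fold change of 0.17 ± 0.71 (SE; edgeR adjusted p = 0.909) ran from -0.39 to 2.34 when single libraries were left out, the higher value without aliquot A of 4C without inhibitor.

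Of the co-chaperones of Hsp70, Dnajb1 (chr8:83608193-83612653, +), an Hsp40 that delivers substrates and stimulates the ATPase, had 47.4 and 54.8 CPM in the 37C libraries with inhibitor and 76.2 and 75.0 CPM in those without, against 35.9 and 86.2 CPM in the 4C libraries with inhibitor and 54.0 and 26.9 CPM in those without. Hsph1 had 106 and 91.8 CPM in the 37C libraries with inhibitor and 132 and 88.8 CPM in those without, against 89.8 and 86.2 CPM in the 4C libraries with inhibitor and 124 and 118 CPM in those without. For both genes the temperatures overlapped. The log2 fold change was 0.40 ± 0.34 (SE; edgeR adjusted p = 0.468) for Dnajb1 and 0.13 ± 0.26 (SE; edgeR adjusted p = 0.802) for Hsph1. For Hsph1 the pooled counts, 244 UMIs at 37C and 51 at 4C, gave a ratio of 0.94 with a 95% counting interval of 0.693 to 1.30.

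Hsp90aa1 (chr12:110690605-110702728, -), the inducible cytosolic Hsp90 alpha that matures kinases and receptors, had 361 and 386 CPM in the 37C libraries with inhibitor and 312 and 328 CPM in those without, against 144 and 140 CPM in the 4C libraries with inhibitor and 193 and 242 CPM in those without. Every 37C library lay above every 4C library, and the 4C libraries with inhibitor were the lowest. The log2 fold change was 1.08 ± 0.20 (SE; edgeR adjusted p = 0.000172) and lay between 1.03 and 1.22 when single libraries were left out. It was 0.82 ± 0.21 (SE) without the unannotated barcodes over 5000 UMIs and 0.86 ± 0.39 (SE; adjusted p = 0.137) in barcodes under 200 UMIs alone, both with edgeR. The marker and barcode values given above moved with this difference, and their part in it was not tested.

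The mitochondrial pair rose at 37C. Hspd1 had 156 and 158 CPM in the 37C libraries with inhibitor and 125 and 150 CPM in those without, against 53.9 and 10.8 CPM in the 4C libraries with inhibitor and 38.6 and 59.1 CPM in those without. Hspe1 had 324 and 382 CPM in the 37C libraries with inhibitor and 279 and 336 CPM in those without, against 126 and 162 CPM in the 4C libraries with inhibitor and 262 and 231 CPM in those without. For both genes every 37C library was above every 4C library, but for Hspe1 the 4C libraries without inhibitor came close to the lowest 37C library. The log2 fold changes were 2.09 ± 0.33 (SE; edgeR adjusted p = 1.8e-05) for Hspd1 and 0.90 ± 0.20 (SE; edgeR adjusted p = 0.00158) for Hspe1. Pooled counts of Hspd1 were 353 UMIs at 37C and 20 at 4C, a ratio of 3.47 with a 95% counting interval of 2.21 to 5.75; such intervals cover counting error only.

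Hspd1 was the gene among the 10 that also passed in the barcodes under 200 UMIs alone, where 5 of the 10 could be tested, with a log2 fold change of 2.09 ± 0.50 (SE; edgeR adjusted p = 0.00165). It lay at 1.82 ± 0.35 (SE; edgeR adjusted p = 0.000337) without the unannotated barcodes over 5000 UMIs and between 1.68 and 2.74 when single libraries were left out. Of the 50-base stretches of its transcript 44.8% occur in other annotated genes, all pseudogenes, but 0.0% of those in the last 500 bases do. For Hspe1 the shares are 36.1% and 53.2%, so its counts carry the same doubt as those of Hspa8. With every library thinned to the smallest, Hspe1 did not pass (0.56, adjusted p = 0.181).

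**Figure D2:**
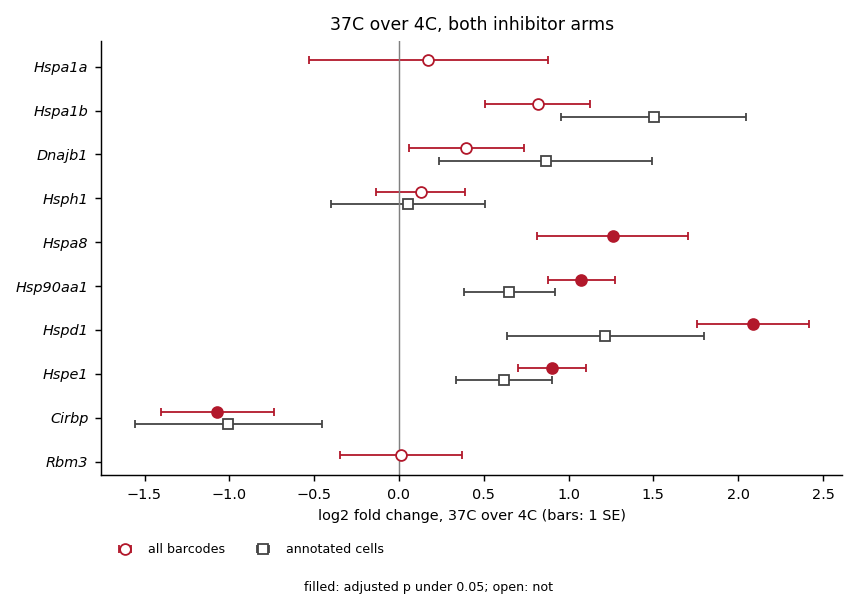
Log2 fold change of 37C over 4C for each gene over both inhibitor arms, in all barcodes (circles) and annotated cells (squares), with bars of 1 SE. Filled symbols passed an adjusted p of 0.05; Hspd1, Hsp90aa1, Hspe1, Hspa8 and Cirbp passed in all barcodes and 0 of the 7 testable genes in annotated cells.

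Of the cold-inducible genes Cirbp was lower at 37C and Rbm3 did not pass the test. Cirbp (chr10:80165985-80172786, +) had 52.4 and 35.4 CPM in the 37C libraries with inhibitor and 27.7 and 29.6 CPM in those without, against 89.8 and 86.2 CPM in the 4C libraries with inhibitor and 69.5 and 80.6 CPM in those without. Every 37C library lay below every 4C library, on 91 UMIs at 37C and 37 at 4C. The log2 fold change was -1.07 ± 0.33 (SE; edgeR adjusted p = 0.0236), but the call was lost when any of 4 libraries was left out: aliquot B of 37C with inhibitor (-0.94, adjusted p = 0.0674), aliquot B of 4C without inhibitor (-0.96, adjusted p = 0.115), and aliquot A (-1.06, adjusted p = 0.075) or B (-1.01, adjusted p = 0.164) of 4C with inhibitor. DESeq2 did not call it either (-1.07, adjusted p = 0.0825). Lymphocyte markers were higher in the same 4C libraries, and their part in this difference was not tested. Rbm3 (chrX:8138975-8145880, -) had 53.6 and 27.4 CPM in the 37C libraries with inhibitor and 60.0 and 61.2 CPM in those without, against 53.9 and 64.7 CPM in the 4C libraries with inhibitor and 54.0 and 43.0 CPM in those without. The groups overlapped, with a log2 fold change of 0.01 ± 0.36 (SE; edgeR adjusted p = 0.99) whose sign changed with the scaling. The pooled ratio of Rbm3, 0.958, had a 95% counting interval of 0.613 to 1.55.

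Within the annotated cells the depth was lower and no call was made. Of the 10 genes, 7 passed the filter on low counts there (Hspa1a, Hspa8 and Rbm3 did not) and 0 were called for temperature by edgeR, where 3.98% of 3391 genes were; 4 had an unadjusted p under 0.05, against 16.4% of all genes, and DESeq2 also called 0. The median log2 fold change over the 7 was 0.65, beside 0.04 over all genes. Hspa1b had 105 and 81.8 CPM in the 37C cells with inhibitor and 82.1 and 225 CPM in those without, against 43.1 and 90.2 CPM in the 4C cells with inhibitor and 19.0 and 30.7 CPM in those without. The groups overlapped through 1 library, aliquot B at 4C with inhibitor, and the log2 fold change of 1.5 ± 0.54 (SE; edgeR adjusted p = 0.142) missed the threshold.

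Other values in annotated cells pointed the way they did in all barcodes, with wider errors. Log2 fold changes were 1.22 ± 0.58 for Hspd1 (adjusted p = 0.297), 0.86 ± 0.63 for Dnajb1 (adjusted p = 0.549) and 0.65 ± 0.27 for Hsp90aa1 (adjusted p = 0.216), all SE and edgeR. For Hspe1 the value was 0.62 ± 0.28 (SE; edgeR adjusted p = 0.272), for Hsph1 0.05 ± 0.45 (SE; edgeR adjusted p = 0.973) and for Cirbp -1.01 ± 0.55 (SE; edgeR adjusted p = 0.379). Hspa1a was seen with 10 UMIs in the 37C cells, in every library, and with 0 of 185425 UMIs in the 4C cells; the lower 95% counting bound of the ratio was 0.578, so no difference was detectable at this depth. Hspa1a was the 1 gene of the 10 higher in every 37C library of annotated cells, but it did not pass the filter and is not among the genes tested. Of the genes tested 5.37% were higher in every 37C library, with none of the 7 testable genes among them. Of the 10 genes 0 were lower in every 37C library, where 4.31% of the genes tested were. Weighting every library to the same shares of the 4 cell types gave 1.28 ± 0.53 for Hspa1b and -0.42 ± 0.50 for Cirbp on the log2(CPM + 10) scale (SE; limma adjusted p = 0.369 and 0.808). Values of the other genes from this fit are not given here. The 4C libraries held 1 to 8 macrophages and 3 to 14 NK cells, which entered with the same weights as the larger groups of cells in other libraries. By arm, 0 of the 7 genes passed with inhibitor, where 1.8% of all genes did, and 2 had an unadjusted p under 0.05, where 13.7% did. Without inhibitor 0 passed, where 1.06% did, and 1, Hspa1b at 2.56 ± 0.77 (SE; edgeR adjusted p = 0.144), had an unadjusted p under 0.05, where 10% did. The interaction gave 0 of 7, where 0% of all genes passed, and 0 with an unadjusted p under 0.05, where 7.37% had one, and DESeq2 called 0 in each of these comparisons.

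By inhibitor arm, Hspd1 passed in both, Hspa1b in the arm without inhibitor, and Hsp90aa1 and Hspe1 in the arm with it. Without inhibitor, 2 of the 10 genes were called for temperature in all barcodes, Hspa1b at 1.67 ± 0.42 (SE; edgeR adjusted p = 0.0146) and Hspd1 at 1.53 ± 0.37 (SE; edgeR adjusted p = 0.0108), where 4.64% of all genes were and 2.73% were higher. With inhibitor 3 of 10 were called, Hspd1 at 2.65 ± 0.55 (SE; edgeR adjusted p = 0.00106), Hsp90aa1 at 1.53 ± 0.31 (SE; edgeR adjusted p = 0.000964) and Hspe1 at 1.38 ± 0.32 (SE; edgeR adjusted p = 0.00306), where 10.6% of all genes were and 4.88% were higher. Without aliquot A of 4C with inhibitor Hspe1 did not pass there (1.25, adjusted p = 0.0561), and without aliquot B Hspd1 did not (1.80, adjusted p = 0.152). In the arm with inhibitor Hspa1b was at -0.04 ± 0.46 (SE; edgeR adjusted p = 0.976), and in the arm without it Hsp90aa1 was at 0.63 ± 0.24 (SE; edgeR adjusted p = 0.143) and Hspe1 at 0.42 ± 0.24 (SE; edgeR adjusted p = 0.382). Without aliquot B of 37C without inhibitor, the library with 193 CPM, the call of Hspa1b in its arm was lost (0.98, adjusted p = 0.322). Without aliquot A of 4C without inhibitor those of Hspa1b (1.34, adjusted p = 0.0889) and Hspd1 (1.30, adjusted p = 0.109) were lost. DESeq2 did not call Hspa1b there (1.70, adjusted p = 0.0697), and Hspd1 was not called without the unannotated barcodes over 5000 UMIs (1.21, adjusted p = 0.104).

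The difference between the arms itself did not pass for any of the 10 genes, where 1.16% of all genes did by edgeR; 4 of the 10 had an unadjusted p under 0.05, against 11% of all genes, and DESeq2 called 0. The interaction, the temperature difference with inhibitor minus that without, was -1.71 ± 0.66 for Hspa1b (SE; edgeR adjusted p = 0.281) and -3.79 ± 1.43 for Hspa1a (SE; edgeR adjusted p = 0.265). It was 0.90 ± 0.41 for Hsp90aa1 (SE; edgeR adjusted p = 0.399) and 0.96 ± 0.41 for Hspe1 (SE; edgeR adjusted p = 0.359). The inducible Hsp70 pair thus had negative values, and Hsp90aa1 and Hspe1 positive ones. When aliquot A of 37C without inhibitor was left out, Hspa1b passed for the interaction (-2.13, adjusted p = 0.0487).

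**Figure D3:**
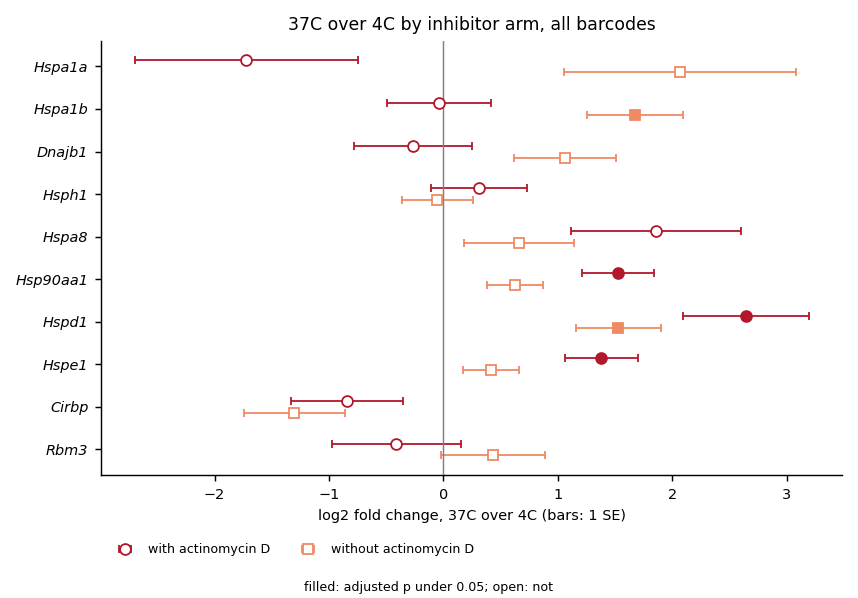
Log2 fold change of 37C over 4C in all barcodes, with actinomycin D (circles) and without it (squares), with bars of 1 SE. Filled symbols passed an adjusted p of 0.05: Hspd1 in both arms, Hsp90aa1 and Hspe1 with the inhibitor and Hspa1b without it.

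Set directly against each other at 37C, libraries with and without inhibitor differed for 0 of the 10 genes in all barcodes, where 3.41% of all genes passed (edgeR; 1 of the 10, Hspa1a, had an unadjusted p under 0.05, against 12.3% of all genes; DESeq2 called 0). The values with SE were -1.44 ± 0.63 for Hspa1a (edgeR adjusted p = 0.31), -0.52 ± 0.27 for Hspa1b (edgeR adjusted p = 0.442), -0.52 ± 0.30 for Dnajb1 (edgeR adjusted p = 0.532) and 0.67 ± 0.37 for Cirbp (edgeR adjusted p = 0.496). Without aliquot A of 37C without inhibitor, Hspa1b passed at -0.95 ± 0.28 (SE; edgeR adjusted p = 0.031), and without aliquot B of the same group it was at 0.19 ± 0.33 (adjusted p = 0.93). At 4C, 0 of the 10 passed, where 0.0266% of all genes did (edgeR; 0 with an unadjusted p under 0.05, against 6.79% of all genes; DESeq2 called 0), and Hspa1b was at 1.19 ± 0.60 (SE; edgeR adjusted p = 0.735). In annotated cells 0 of the 7 testable genes passed for the inhibitor at 37C, where 1.21% of all genes did, or at 4C, where 0% did (edgeR; DESeq2 also called 0). None had an unadjusted p under 0.05 there, where 8.43% of all genes did at 37C and 5.07% at 4C.

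Across the 4 annotated cell types, most UMIs of every heat shock gene but Hspa1a lay in tumour cells. These levels are a description, since the types were named from the expression of the same cells. Summed over the 8 libraries, tumour cells had the highest level of the 4 types for 6 genes, Hspa1b, Dnajb1, Hspa8, Hsp90aa1, Hspd1 and Hspe1. In the 37C libraries alone they were not the highest for Hspa8, at 89.7 CPM in tumour cells and 98.1 CPM in T cells, or for Dnajb1, at 81.1 CPM in tumour cells, 98.1 CPM in T cells and 96.1 CPM in NK cells. Tumour cells held 64.4% of all UMIs in annotated cells but 91.6% of those of Hspa1b (95% exact binomial interval 84.1 to 96.3%), 88.1% of Hspd1 (79.2 to 94.1%) and 83.2% of Hspe1 (78.6 to 87.2%). Dnajb1 at 75.9%, Rbm3 at 73.7%, Cirbp at 56.0% and Hspa1a at 30.0% had intervals that include the share over all genes.

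Hspa1b had 149 CPM in tumour cells, 96.6 CPM in NK cells, 13.5 CPM in macrophages and 8.24 CPM in T cells, from 87, 5, 2 and 1 UMIs. Tumour cells were above T cells and above macrophages in 8 of 8 libraries, with pooled ratios of 18.1 (95% counting interval 3.17 to 724) and 11.1 (2.98 to 93.0). Hspa1b was at 0 in 7 of the 8 T cell sums and 6 of the 8 macrophage sums. At 4C these sums held 5656 to 12884 UMIs in T cells and 1269 to 5866 in macrophages. That depth could hardly show another order, so the count of libraries adds little to the pooled ratios. All 5 UMIs in NK cells came from 1 cell, so the order of tumour and NK cells is not resolved.

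Hsp90aa1 had 453 CPM in tumour cells, 256 CPM in T cells, 251.1 CPM in NK cells and 209 CPM in macrophages. Tumour cells lay above T cells in 8 of 8 libraries and above macrophages in 7 of 8, with pooled ratios of 1.77 (95% counting interval 1.22 to 2.66) and 2.17 (1.49 to 3.26), and they were above NK cells in 5 of 8 and below in 3, with a ratio of 1.81 (1.04 to 3.44). The ratios among the other 3 types had counting intervals that include 1. Hspe1 had 443 CPM in tumour cells, 190 CPM in T cells, 155 CPM in NK cells and 141 CPM in macrophages, and tumour cells were higher in 7, 7 and 8 of 8 libraries. Hspe1 was at 0 in 1 of the 8 T cell sums, 3 of the NK cell sums and 4 of the macrophage sums. Hspd1 followed the same order of tumour over T cells, at 127 and 41.2 CPM, with 26.9 CPM in macrophages and 19.3 CPM in NK cells.

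The remaining genes separated the types less. Dnajb1 had 75.5 CPM in tumour cells and 74.2 CPM in T cells, with tumour cells higher in 3 of 8 libraries, and 57.9 CPM in NK cells and 13.5 CPM in macrophages. Hspa8 had 80.7 CPM in tumour cells, 65.9 CPM in T cells and 13.5 CPM in macrophages, and 0 of 51771 UMIs in NK cells. Hsph1 had 116 CPM in NK cells, 103 CPM in tumour cells, 65.9 CPM in T cells and 26.9 CPM in macrophages. Macrophages were thus the lowest type for Dnajb1 and Hsph1, below tumour cells by ratios whose intervals exclude 1.

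Cirbp had 116 CPM in NK cells and 90.7 CPM in T cells, above 48.1 CPM in tumour cells and 33.7 CPM in macrophages, but on 50 UMIs in all, and tumour cells were lower than T cells in 5 of 8 libraries, with a ratio of 0.53 whose 95% counting interval, 0.256 to 1.18, includes 1. Rbm3 had 77.3 CPM in NK cells, 48.1 CPM in tumour cells, 33.0 CPM in T cells and 13.5 CPM in macrophages, with overlapping intervals. Hspa1a was seen in 5 cells, with 3 UMIs in tumour cells, 4 in macrophages, 3 in NK cells and 0 in T cells. In these counts the types of Hspa1a cannot be ordered.

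**Figure D4:**
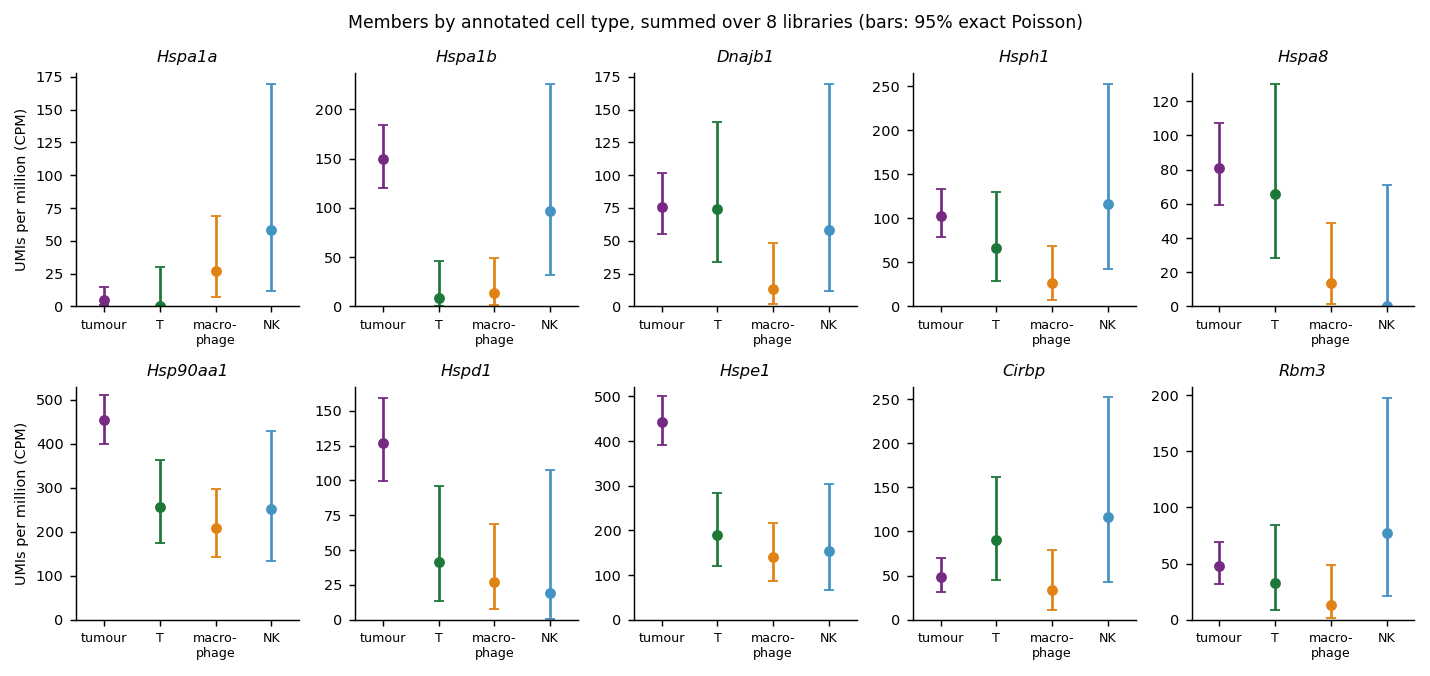
Level of each gene in tumour cells, T cells, macrophages and NK cells, summed over the 8 libraries, in CPM, with 95% exact Poisson intervals that cover counting error only. Tumour cells are highest for Hspe1 (443 CPM) and Hspd1 (127 CPM), and above T cells and macrophages for Hspa1b and Hsp90aa1.

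Within a cell type, temperature could be tested in tumour cells and T cells, since macrophages and NK cells fell under 10 cells in some libraries. In tumour cells 3 of the 10 genes passed the filter on low counts and 0 were called, where 1.42% of 1756 genes were (edgeR; 1 had an unadjusted p under 0.05, against 13.1% of all genes; DESeq2 called 0). Hspa1b had 136 and 100 CPM in 37C tumour cells with inhibitor and 149 and 310 CPM in those without, against 66.8 and 170 CPM in 4C tumour cells with inhibitor and 33.3 and 44.1 CPM in those without. Only aliquot B at 4C with inhibitor, on 4 UMIs, reached into the 37C range. Log2 fold changes were 1.19 ± 0.55 for Hspa1b (adjusted p = 0.32), 0.57 ± 0.30 for Hsp90aa1 (adjusted p = 0.422) and 0.56 ± 0.31 for Hspe1 (adjusted p = 0.452), all SE and edgeR. At 37C with against without inhibitor, tumour cells gave -1.03 ± 0.45 for Hspa1b (SE; edgeR adjusted p = 0.649), and 0 of the 3 passed, where 0.911% of all genes did (1 with an unadjusted p under 0.05, against 6.09%; DESeq2 called 0). At 4C, 0 of the 3 passed, where 0% of all genes did (edgeR; 0 with an unadjusted p under 0.05, against 5.13%; DESeq2 called 0).

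In T cells none of the 10 genes passed the filter, so 0 were tested, where 9.57% of 230 genes were called by edgeR. T cells held 1 UMI of Hspa1b, 31 of Hsp90aa1 and 23 of Hspe1 in all. The difference in the temperature effect between tumour and T cells could be tested for Hsp90aa1, at -0.58 ± 0.81 (SE; edgeR adjusted p = 0.979), and Hspe1, at 0.46 ± 0.84 (SE; edgeR adjusted p = 0.981), where 0.383% of 522 genes passed; 0 of the 2 had an unadjusted p under 0.05, against 6.32% of all genes, and DESeq2 called 0.

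In each 37C library, with or without inhibitor, 3 cells held most of the Hspa1b UMIs of the annotated cells. Hspa1b was seen in 43 of 654 annotated cells and with 2 or more UMIs in 15. In aliquot B of 37C without inhibitor, 3 tumour cells with 10, 9 and 7 Hspa1b UMIs held 26 of the 37 UMIs of the library's annotated cells, and none of the 3 had a UMI of Hspa1a, Dnajb1 or Hsph1. In aliquot A of the same suspension, 3 cells held 10 of 13 UMIs. At 37C with inhibitor, 3 cells held 15 of 21 UMIs in aliquot A and 9 of 16 in aliquot B. Over all 8 libraries the 3 highest cells held 26 of the 95 Hspa1b UMIs of annotated cells. Annotated cells held 87 of the 273 Hspa1b UMIs of all barcodes at 37C and 8 of 31 at 4C. The 4C libraries had at most 2 Hspa1b UMIs in a cell. Of the 5 cells with Hspa1a, 4 also had Hspa1b, among them an NK cell of 37C with inhibitor whose 407 UMIs included 3 of Hspa1a, 5 of Hspa1b, 1 of Dnajb1 and 2 of Hsph1. Barcodes under 200 UMIs of the 37C libraries held Hspa1b at 133 CPM and annotated cells at 121 CPM, so a UMI in a cell is not read here as expression by that cell.

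**Figure D5:**
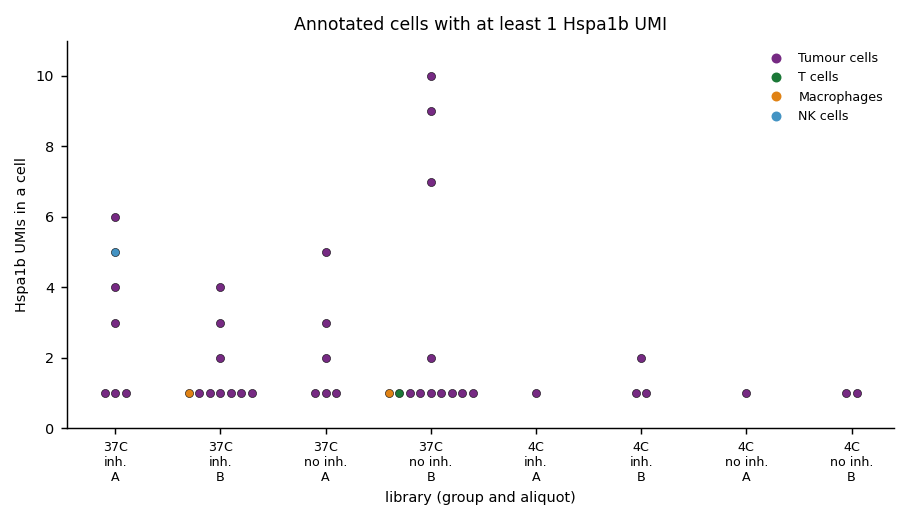
Hspa1b UMIs in each annotated cell that had at least 1, by library and cell type. The highest values, 10, 9 and 7, are tumour cells of aliquot B of 37C without inhibitor, and the 4C libraries hold cells with 1 or 2 UMIs.

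Among other chaperone genes, 11 of 42 tested were called higher at 37C in the sums over all barcodes and 0 lower, where 9.18% of all genes were called higher and 7.98% lower. The list held 45 further chaperones, co-chaperones and related stress genes, and the 42 tested had a median log2 fold change of 0.43 beside 0.05 over all genes tested. Among those named here, the lowest p belonged to Hsp90ab1, the constitutive cytosolic Hsp90, at 0.78 ± 0.13 (SE; edgeR adjusted p = 3e-05), followed by Serpinh1, the collagen chaperone of the endoplasmic reticulum, at 0.97 ± 0.17 (SE; edgeR adjusted p = 5.4e-05). The CCT chaperonin, which folds actin and tubulin, was represented by Cct6a at 0.81 ± 0.19, Cct2 at 0.82 ± 0.19, Cct3 at 0.87 ± 0.20 and Cct5 at 0.63 ± 0.16, and the small heat shock protein gene Hspb8 stood at 1.73 ± 0.42 (SE). In annotated cells 0 of 32 tested genes of this list were called by edgeR for temperature, where 3.98% of all genes were; 5 had an unadjusted p under 0.05, against 16.4% of all genes.

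Of 8 genes with a cold shock domain or related role, 4 were tested in all barcodes and 2 were called, both higher at 37C: Ybx1 at 0.82 ± 0.17 (SE; edgeR adjusted p = 0.00083) and Ybx3 at 0.76 ± 0.19 (SE; edgeR adjusted p = 0.00506), which encode mRNA-binding Y-box proteins. Of 5 heat shock factor genes 2 were tested and 0 called (edgeR; 0 with an unadjusted p under 0.05). Over all genes 17.2% were called, 9.18% higher and 7.98% lower.

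The genes whose levels over the 8 libraries were most like those of 4 members were looked up among 1944 or 1943 other genes with a mean of at least 100 CPM, by Pearson's r of log2(CPM + 1) over all barcodes, as a description over libraries that share 4 suspensions. For Hspa1b they were Syncrip (r = 0.948), Nsd2 (0.903) and Ywhab (0.895), and for Hspa8 Nap1l4 (0.976), Pcbp2 (0.967) and Psmb6 (0.964). For Hsp90aa1 they were Aprt (0.994), S100a6 (0.983) and Arg1 (0.975), in a field of 89 genes above 0.9. For Cirbp they were Nr1h2 (0.946), Rpl17 (0.927) and Gm23935 (0.925).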

How the data were processed

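Single-cell RNA was measured in 8 libraries, 2 aliquots of each of 4 suspensions. The library tables that the authors deposited hold raw counts of UMIs per gene and barcode. Their deposited expression table (6933 genes, 654 cells) is on a natural log scale, ln of 1 plus the count per 10000 of the cell, since undoing it gave 10000 per cell and 99.9873% of nonzero entries in proportion to the raw counts (tolerance 0.001). The submitters' processing notes name GRCm38, Seurat, SAMtools, UMI-tools, featureCounts 1.6.0 and STAR 2.7.1a. The sources used here do not state settings, cell filters, doublet treatment or how types were named, and no doublet caller was run. GENCODE M21 supplied symbols for 17520 of 17580 identifiers.

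Raw counts were summed per library over annotated cells, over each type and over all listed barcodes, and CPM are UMIs per 1000000 UMIs of that sum. Genes were kept by filterByExpr and scaled by TMM; the 4 groups were fitted with edgeR 4.0.16 in R 4.3.3 (glmQLFit, glmQLFTest, two-sided), with Benjamini-Hochberg adjustment over all genes tested and a call under 0.05. DESeq2 1.42.0 and limma 3.58.1 served as alternatives. Counting intervals are exact (95%). The fit was tested first on simulated data, with a spread between libraries that was set and not taken from these data. Of the 2-fold changes tested, it recovered 24 of 91 in all barcodes and 16 of 85 in annotated cells. At 4-fold it recovered 73 of 88 and 63 of 77. A gene that was not called may thus still differ by 2-fold. Libraries were compared at depths of 55698 to 801510 UMIs, and a level rests on the UMIs printed. The 10 genes, the gene lists and the comparisons were chosen with earlier results of these data known. Named genes were the 10, the called list genes with the smallest p (at most 10) and the 3 genes most like each of 4 members; 1 list gene that the rule selects is not reported here. The aliquots of a suspension differed by more than counting noise (chi-square per degree of freedom 1.3 to 2.05). The aliquot letters were not treated as pairs, since correlations of same-letter deviations ran from -0.03 to 0.239. Alternatives were other scaling, no filter, DESeq2, thinning, summed aliquots, equal cell type shares and left-out libraries; 3 choices of barcodes were added after seeing the data.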

Additional observations from a re-analysis of the deposited data

Results flagged for a closer look

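Hspa1a, Hspa1b and Rbm3 in all barcodes are listed because their libraries split in opposite directions in the 2 inhibitor arms. With inhibitor, both 37C libraries lay below both 4C libraries, and without inhibitor both 37C libraries lay above both 4C libraries. For Hspa1b the highest 37C library with inhibitor had 96.6 CPM and the lowest 4C library with inhibitor 97.0 CPM. For Rbm3 these were 53.6 and 53.9 CPM. Both gaps are smaller than a single UMI in these 4C libraries. This split was found for 3 of the 10 genes, and for 2.63% of all 7515 genes tested. The temperature difference with inhibitor minus that without was -3.79 ± 1.43 for Hspa1a (SE; edgeR adjusted p = 0.265), -1.71 ± 0.66 for Hspa1b (SE; edgeR adjusted p = 0.281) and -0.84 ± 0.73 for Rbm3 (SE; edgeR adjusted p = 0.764), all on the log2 scale, so the difference between the arms did not pass its own test for any of them. The 4C libraries with inhibitor, which hold the high 4C values, were the shallowest, with 5 UMIs of Hspa1a, 16 of Hspa1b and 9 of Rbm3 between them. In annotated cells the 37C and 4C libraries with inhibitor overlapped for Hspa1b and Rbm3. For Hspa1a both 37C libraries with inhibitor lay above both 4C libraries with inhibitor, on 4 UMIs at 37C and 0 at 4C. There 0 of the 10 genes split in this way, against 2.51% of all genes tested, which include 7 of the 10.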

How the results depend on the processing

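Of 680 values of single genes recomputed under the alternatives, 629 kept their direction and side of the threshold. Most of these belonged to genes that had not passed and stayed so, which says little about the calls. A call was lost in 19 values and gained in 9, and the sign changed in 23. Only the 5 genes called for temperature in all barcodes could lose a call. For temperature in all barcodes, 5 genes were called; DESeq2 called 3, libraries thinned to the smallest 1 (2 genes testable), aliquots summed to 4 suspensions 3, and single libraries left out gave 3 to 6. Hspd1, Hsp90aa1 and Hspe1 were called in each of the 8 fits that left out a library, while Hspa8 and Cirbp were lost in some. With the choices of barcodes added after seeing the data, the barcodes under 200 UMIs gave 1 (5 testable), all but the annotated cells 3, and all but the unannotated ones over 5000 UMIs 4. Without inhibitor, 2 genes were called; DESeq2 called 1, thinning 0, barcodes under 200 UMIs 0, the sum without barcodes over 5000 UMIs 1, and left-out libraries gave 0 to 3. With inhibitor, 3 were called, against 1 after thinning, 1 under 200 UMIs, and 2 to 4 with a library left out. For the inhibitor at 37C and for the interaction, 0 were called, against 0 to 1 with a library left out. In annotated cells 0 were called for temperature, against 1 without the filter, Hspa1b, and 0 to 1 with a library left out (Hspa8, without aliquot B of 4C without inhibitor); without inhibitor 1, Hspa1b, was called without the filter. Tumour cells had the highest level for 6 genes, for 7 by the mean of the authors' values and for 5 to 6 with a library left out. The difference in median UMIs per cell, 706.6, ran from 600.3 to 801.6 with a library left out, each at the smallest p that 3 against 4 libraries allow (exact permutation test, p = 0.0571). Here too the aliquots were treated as independent.

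Values that changed sign belonged to genes that had not passed. For temperature in all barcodes Rbm3 was at -0.0034 with DESeq2 size factors, -0.025 with the replicate block, -0.17 without the annotated cells and -0.26 to 0.21 with a library left out; Hsph1 then ran from -0.00072 to 0.28 and Hspa1a from -0.39 to 2.34. For the inhibitor at 37C, Hsp90aa1 was at -0.057 after thinning, Hsph1 at 0.00996 without barcodes over 5000 UMIs and from -0.35 to 0.21 with a library left out, and Hspa1b from -0.95 to 0.19. For the inhibitor at 4C, left-out libraries gave -0.17 to 1.26 for Dnajb1, -1.88 to 6.22 for Hspa8 (the upper value against 0 counts) and -2.17 to 0.0059 for Hspd1. In annotated cells they gave -0.082 to 0.84 for Hsph1 by temperature, and, for the inhibitor at 4C, -6.05 to 0.13 for Hspd1, -0.86 to 0.89 for Hsph1 and -1.31 to 0.18 for Cirbp. The cause was not tested for any of these changes. Aliquot letters did not pair the samples, and a fit with the letter as a replicate block called 6 genes for temperature in all barcodes. A fit that leaves 1 library in a group assumes that it varies like the other groups. Depth limits these results most at 4C, where a gene had 0 to 45 UMIs per library.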
